A study of Mus musculus with 10 samples.

Results

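Ear2 and 6 further genes tied to the type 2 response of macrophages were followed in RNA-seq counts of mouse kidney tumours injected with a RIG-I agonist. The genes are Ear2, Rnase2a, Il4ra, Il13ra1, Egr2, Tgm2 and Pparg, taken by symbol from the deposited count table, and all 7 were found among its 18603 genes. They were selected on their measured levels in the SLR14 and PBS tumours, above all that of Ear2, so their differences between the groups are a description with no test.

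The tumours grew from RENCA, a mouse kidney cancer cell line, implanted under the skin of female Balb/c mice. Lipid nanoparticles carrying SLR14, an RNA ligand of the cytosolic sensor RIG-I, were injected into the treated tumours in 50 µL of PBS, 3 times at 48-hour intervals. Control tumours of the same line and host received PBS, and all were taken 24 hours after the last injection, 1 from each of 5 mice per group. The labels name no empty nanoparticles among the control injections, so the carrier and its RNA cargo cannot be told apart.

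IL-4 and IL-13 are the signature cytokines of type 2 immunity, the arm directed against worms and active in allergy and tissue repair. On macrophages both act through the receptor chain IL-4Rα, whose JAK kinases activate the transcription factor STAT6, and the response includes scavenger and lectin receptors, chemokines, lipid-metabolising enzymes and secreted ribonucleases. The nuclear receptor PPARγ and the zinc-finger factor EGR2 take part in this programme in mouse macrophages, and transglutaminase 2 is one of its conserved products.

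Library totals lay between 17931895 and 39842608 counts. Tumour PBS 5 stood apart on the first principal component (36.4% of the variance), at 54.5 against -17 to 10.8 for the other 9 tumours. Tumour SLR14 2 had the least skeletal muscle RNA, with muscle markers summing to 1.85 CPM against 83.8 to 197 CPM in the other SLR14 tumours and 33.4 to 172 CPM in PBS tumours. CPM here means a gene's counts relative to its library total, scaled by TMM. Renal epithelial markers (6 of 8 in the table, among them Pax8, Krt8 and Krt18) summed to 2590 to 3130 CPM in SLR14 tumours and 2470 to 3080 CPM in PBS tumours, and macrophage markers (10 of 10 in the table, among them Adgre1, Csf1r and Lyz2) to 2240 to 2780 CPM in SLR14 tumours and 2190 to 2630 CPM in PBS tumours. The defining markers of the labelled cell line and of macrophages were thus present in every tumour. Since each library is a whole tumour, fewer cells of a type and less RNA per cell cannot be told apart.

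Ear2 (ENSMUSG00000072596) and Rnase2a (ENSMUSG00000047222, also called Ear11) belong to the eosinophil-associated ribonucleases, secreted members of the RNase A superfamily that are related to the human eosinophil granule proteins RNASE2 and RNASE3. The mouse family has expanded by gene duplication, and Rnase2a is known from mouse macrophages exposed to IL-4 or IL-13. Both genes lie on chromosome 14. Their start-site regions are shown because the genes are close relatives whose levels differed in opposite directions between the groups. Each sequence runs from 250 bases before to 50 bases after the RefSeq start (build GRCm38.p6), at chr14:44102404-44102703 on the plus strand for Ear2 and chr14:51256063-51256362 on the minus strand for Rnase2a. Capitals mark bases that differ between the aligned regions, insertions included.
Ear2: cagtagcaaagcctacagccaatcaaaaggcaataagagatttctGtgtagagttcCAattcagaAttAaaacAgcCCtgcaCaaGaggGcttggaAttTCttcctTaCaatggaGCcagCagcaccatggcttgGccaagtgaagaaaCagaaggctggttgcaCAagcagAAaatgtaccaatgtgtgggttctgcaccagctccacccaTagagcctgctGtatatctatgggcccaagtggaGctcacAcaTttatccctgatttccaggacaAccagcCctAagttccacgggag
Rnase2a: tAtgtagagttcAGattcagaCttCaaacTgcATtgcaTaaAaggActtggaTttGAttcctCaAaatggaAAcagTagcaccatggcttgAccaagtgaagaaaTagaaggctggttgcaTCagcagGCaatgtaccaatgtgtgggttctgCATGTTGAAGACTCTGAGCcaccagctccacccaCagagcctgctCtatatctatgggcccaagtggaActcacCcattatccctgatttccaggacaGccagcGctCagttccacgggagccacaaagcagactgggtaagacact
Over 255 aligned bases 223 were identical (87.5%) and 32 were not. Rnase2a held 19 inserted bases and Ear2 held 1, while 44 bases at the start of the Ear2 region and 26 at the end of the Rnase2a region lay outside the alignment.

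RefSeq promoters of this kind were at hand for 6 of the 7 genes, 12 regions in all. Neither strand of any of the 12 held the STAT6 spacing, TTC and GAA with 4 bases between them, which 6.95% of 32851 RefSeq promoters hold. The interferon response motif, GAAA repeated after 2 bases (3.44% of promoters), the PPAR and RXR motif, AGGTCA repeated after 1 base (0.0396%), and the EGR motif GCGTGGGCG (0.612%) were likewise not found in these windows. This says only that these letters are not there.

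Ear2 was nearly absent from the SLR14 tumours. It reached 0.492, 0.119, 0.0508, 0.153 and 0.506 CPM in SLR14 tumours 1 to 5, from 12, 2, 2, 3 and 19 counts. In PBS tumours 1 to 5 it stood at 4.77, 4.57, 4.83, 5.78 and 3.91 CPM, from 137, 144, 128, 193 and 101 counts. The highest SLR14 tumour lay far below the lowest PBS tumour, and within the SLR14 group tumours 1 and 5 were the highest. Mean levels were 0.264 ± 0.218 CPM in SLR14 tumours and 4.77 ± 0.67 CPM in PBS tumours (SD, n = 5 each), a log2 fold change of -4.10 (SE 0.41) or a 17.2-fold lower level with SLR14. The value was -4.04 without PBS 5 and SLR14 2, and lay between -4.57 and -3.77 over 19 alternative fits.

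Ear2 is the only 1 of the 7 genes past the adjusted threshold of 0.05 in edgeR's quasi-likelihood fit over all genes, where 0.29% of 15883 tested genes were called lower, 0.674% higher and 0.963% in either direction. Because this contrast chose the genes, nothing is read from that count. Its counting has 1 limit of its own. In the GENCODE M21 annotation, 278 of the 670 windows of 50 bases along the 719-base Ear2 transcript (41.5%) occur word for word in another gene, 174 in Ear10, 158 in Ear1, 100 in the pseudogene Ear-ps2, 68 in Ear-ps9 and 9 in Ear6. Reads from those windows could have been split or dropped, and Ear1, Ear6 and Ear10 were not analysed here.

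Rnase2a was low in all tumours and higher in those given SLR14. It measured 0.615, 0.536, 0.406, 0.408 and 1.36 CPM in SLR14 tumours 1 to 5, from 8 to 51 counts, against 0.383, 0.127, 0.113, 0.389 and 0.155 CPM in PBS tumours 1 to 5, from 3 to 13 counts. The groups did not overlap, but the lowest SLR14 tumour and the highest PBS tumour were nearly level, and SLR14 5 was far above the rest of its group. Rnase2a averaged 0.665 ± 0.398 CPM in SLR14 tumours and 0.233 ± 0.14 CPM in PBS tumours (SD, n = 5 each). The log2 fold change was 1.51 (SE 0.47), 1.03 without SLR14 5, and was not called. None of its 641 windows of 50 bases occurs in another annotated gene. Ear2 and Rnase2a make up the 2 of 7 genes whose groups did not overlap, where 3.24% of all tested genes did not (1.32% lower and 1.92% higher with SLR14).

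**Figure D1:**
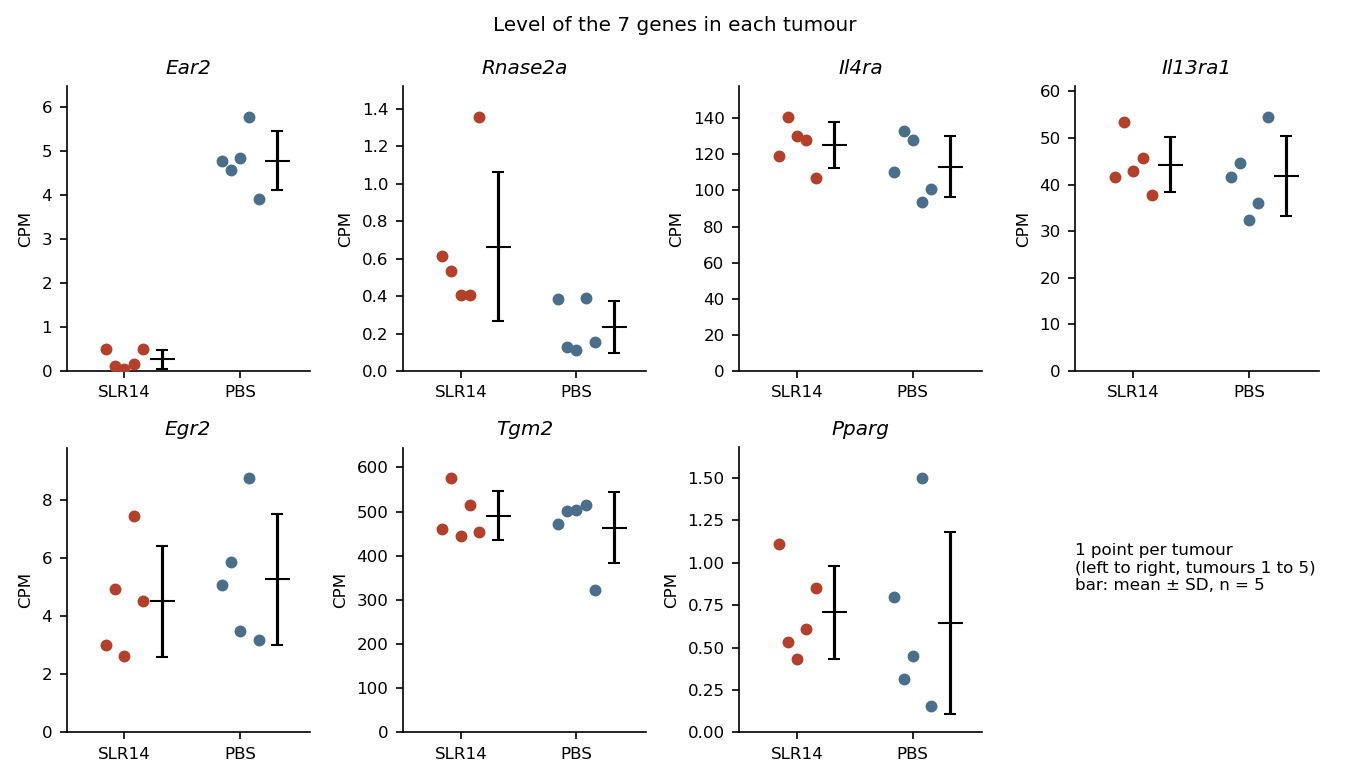
Level of the 7 genes in CPM (TMM-scaled, linear axis from 0), 1 point per tumour, SLR14 left and PBS right, with the mean ± SD of 5 tumours as bars. Ear2 separates into 0.0508 to 0.506 CPM in SLR14 tumours and 3.91 to 5.78 CPM in PBS tumours, Rnase2a lies above in SLR14 tumours by a narrow margin, and the other 5 genes overlap.

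The receptor chains differed by less than the spread between tumours. Il4ra (ENSMUSG00000030748), the chain that IL-4 and IL-13 receptors share, measured 119, 141, 130, 128 and 107 CPM in SLR14 tumours 1 to 5 and 110, 133, 128, 93.6 and 101 CPM in PBS tumours 1 to 5. These ranges overlapped over most of their length. The means were 125 ± 12.9 CPM with SLR14 and 113 ± 16.8 CPM with PBS (SD, n = 5 each), a log2 fold change of 0.14 (SE 0.12). Il13ra1 (ENSMUSG00000017057) encodes the partner that pairs with IL-4Rα to bind IL-13. It measured 41.6, 53.5, 43.0, 45.7 and 37.7 CPM in SLR14 tumours 1 to 5 and 41.6, 44.6, 32.4, 36.1 and 54.6 CPM in PBS tumours 1 to 5, so that the highest value of all was PBS 5. Its means were 44.3 ± 5.92 CPM with SLR14 and 41.8 ± 8.55 CPM with PBS (SD, n = 5 each), and its log2 fold change was 0.08 (SE 0.14).

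Among the transcription factors, Egr2 (ENSMUSG00000037868) measured 2.99, 4.94, 2.64, 7.44 and 4.5 CPM in SLR14 tumours 1 to 5 and 5.05, 5.84, 3.47, 8.74 and 3.18 CPM in PBS tumours 1 to 5. Each group held 1 high tumour, number 4 by its label, and the ranges overlapped. Egr2 averaged 4.5 ± 1.91 CPM in SLR14 tumours and 5.26 ± 2.24 CPM in PBS tumours (SD, n = 5 each), a log2 fold change of -0.24 (SE 0.32) that was 0.02 without PBS 4. Pparg (ENSMUSG00000000440), the lipid-sensing nuclear receptor, was scarce. It measured 1.11, 0.536, 0.431, 0.611 and 0.853 CPM in SLR14 tumours 1 to 5 (9 to 32 counts), and 0.801, 0.317, 0.452, 1.5 and 0.155 CPM in PBS tumours 1 to 5 (4 to 50 counts). The PBS group spanned both the highest and the lowest value. Pparg means were 0.708 ± 0.272 CPM with SLR14 and 0.645 ± 0.533 CPM with PBS (SD, n = 5 each), and the log2 fold change of 0.11 (SE 0.5) became 0.71 without PBS 4 and -0.13 without PBS 5.

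Tgm2 (ENSMUSG00000037820) encodes transglutaminase 2, an enzyme that cross-links proteins. It was the most abundant of the 7 genes, at 461, 576, 445, 516 and 453 CPM in SLR14 tumours 1 to 5 and 473, 501, 503, 516 and 322 CPM in PBS tumours 1 to 5. PBS 5 was below all other tumours and SLR14 2 above them. The means were 490 ± 55.5 CPM in SLR14 tumours and 463 ± 80.4 CPM in PBS tumours (SD, n = 5 each), with a log2 fold change of 0.08 (SE 0.13) that was -0.03 without PBS 5 and -0.10 without PBS 5 and SLR14 2. Of its 3547 windows of 50 bases, 666 (18.8%) also occur in another annotated gene, 536 in Gm20412 and 130 in Rprd1b. Windows were matched in either orientation, and the strand setting of the counting is not given in the sources used here.

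Per kilobase of exon, the levels of the 7 genes could be set in order. In SLR14 tumours Tgm2 led with 106 ± 12.1 CPM per kb, ahead of Il4ra with 20.8 ± 2.15, Il13ra1 with 11.9 ± 1.59, Egr2 with 1.33 ± 0.561, Rnase2a with 0.963 ± 0.577, Ear2 with 0.367 ± 0.303 and Pparg with 0.24 ± 0.0921 CPM per kb (SD, n = 5). Ranges of neighbours overlapped from Egr2 downwards. In PBS tumours the order was Tgm2 with 100 ± 17.4 CPM per kb, Il4ra with 18.8 ± 2.81, Il13ra1 with 11.3 ± 2.3, Ear2 with 6.64 ± 0.932, Egr2 with 1.55 ± 0.659, Rnase2a with 0.338 ± 0.203 and Pparg with 0.218 ± 0.18 CPM per kb (SD, n = 5). There the pair that overlapped was Rnase2a and Pparg. Ear2 thus stood at place 6 per kilobase in SLR14 tumours and at place 4 in PBS tumours, while the order of the other 6 genes was the same in both.

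Ear2 was also low against the macrophage RNA of its own library. Per 1000 counts of the 10 macrophage markers it gave 0.215, 0.0428, 0.0225, 0.057 and 0.226 counts in SLR14 tumours 1 to 5, against 2.13, 2.08, 1.84, 2.5 and 1.55 counts in PBS tumours 1 to 5. The ratio separated the groups as widely as the CPM did, at 0.113 ± 0.0995 in SLR14 tumours and 2.02 ± 0.355 in PBS tumours (SD, n = 5 each), 17.9-fold lower with SLR14. On the log2 scale the ratio of means was -4.16, and it was -4.18 against Adgre1, Csf1r and Mertk alone and -4.33 against the 3 C1q genes alone. None of the 10 macrophage markers was called by edgeR, DESeq2 or limma voom, and 1 (Fcgr1) had an unadjusted p under 0.05, as did 10.8% of all tested genes. By the same ratio Tgm2 gave 200 ± 5.58 counts per 1000 in SLR14 tumours and 196 ± 41.1 in PBS tumours, and Il4ra 51.2 ± 4.09 in SLR14 tumours and 47.8 ± 8.31 in PBS tumours (SD, n = 5 each).

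Markers of other cells that could carry Ear2 were summed in the same way. Non-classical monocyte markers (7 of 7 tested, 0 called by edgeR, DESeq2 or voom, 1 with an unadjusted p under 0.05) summed to 181 to 294 CPM in SLR14 tumours and 236 to 325 CPM in PBS tumours. Most of that sum was Spn, Cx3cr1 and Eno3, and which cells carried these genes was not tested. Treml4, of the same list, averaged 0.731 CPM with SLR14 and 0.73 CPM with PBS. Classical monocyte markers (5 of 6 tested) summed to 61.1 to 107 CPM with SLR14 and 64.1 to 81.7 CPM with PBS. The edgeR fit called 0 of these 5, DESeq2 called 3, voom called 0, and 3 had an unadjusted p under 0.05 beside 10.8% of all tested genes. Eosinophil markers were near the limit of detection in every tumour. Siglecf, Ccr3 and Il5ra, the 3 of 6 listed genes in the table, summed to 0.357 to 0.746 CPM with SLR14 and 0.465 to 0.92 CPM with PBS, and none passed the filter on low counts. Epx, Prg2 and Prg3 were not analysed here. Mast cell and basophil markers (2 of 8 tested) summed to 2.83 to 3.89 CPM with SLR14 and 1.59 to 5.18 CPM with PBS, and markers of Th2 cells and ILC2, lymphocytes that make type 2 cytokines (3 of 6 tested), to 179 to 227 CPM with SLR14 and 115 to 206 CPM with PBS. On these lists edgeR, DESeq2 and voom called 0, with 0 and 1 unadjusted p values under 0.05. The sum for Th2 cells and ILC2 was nearly all Rora, Gata3 and Il1rl1, and which cells carried these genes was not tested.

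Dendritic cell markers lay in the same direction as Ear2. All 8 were in the table and 6 were tested, each with a log2 fold change below 0, the 8 summing to 15.2 to 31.3 CPM in SLR14 tumours and 26 to 66.2 CPM in PBS tumours. Most of that sum was Itgax, at 16.8 ± 4.91 CPM with SLR14 and 27.7 ± 12.8 CPM with PBS (SD, n = 5 each). Its groups overlapped, it was not called (edgeR adjusted p = 0.37), and which cells carried it was not tested. The edgeR fit called 2 of the 6 lower, beside 0.29% of all tested genes. DESeq2 called 2 and voom 2, and 5 had an unadjusted p under 0.05 beside 10.8% of all tested genes. Cd209a, a C-type lectin of dendritic cells and macrophages, stood at 0.135 ± 0.0793 CPM in SLR14 tumours and 2.79 ± 0.783 CPM in PBS tumours (SD, n = 5 each), a log2 fold change of -4.36 (SE 0.36, edgeR adjusted p = 0.000129). Zbtb46, a transcription factor of conventional dendritic cells, stood at 2.07 ± 0.417 CPM with SLR14 against 3.94 ± 0.729 CPM with PBS (SD, n = 5 each; log2 fold change -0.93, SE 0.19, edgeR adjusted p = 0.0398). The Zbtb46 call was lost in 8 of 10 fits that left out 1 tumour. Clec9a and Xcr1, markers of cross-presenting dendritic cells, were too low to test. The part of dendritic cells in the Ear2 difference was not tested.

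**Figure D2:**
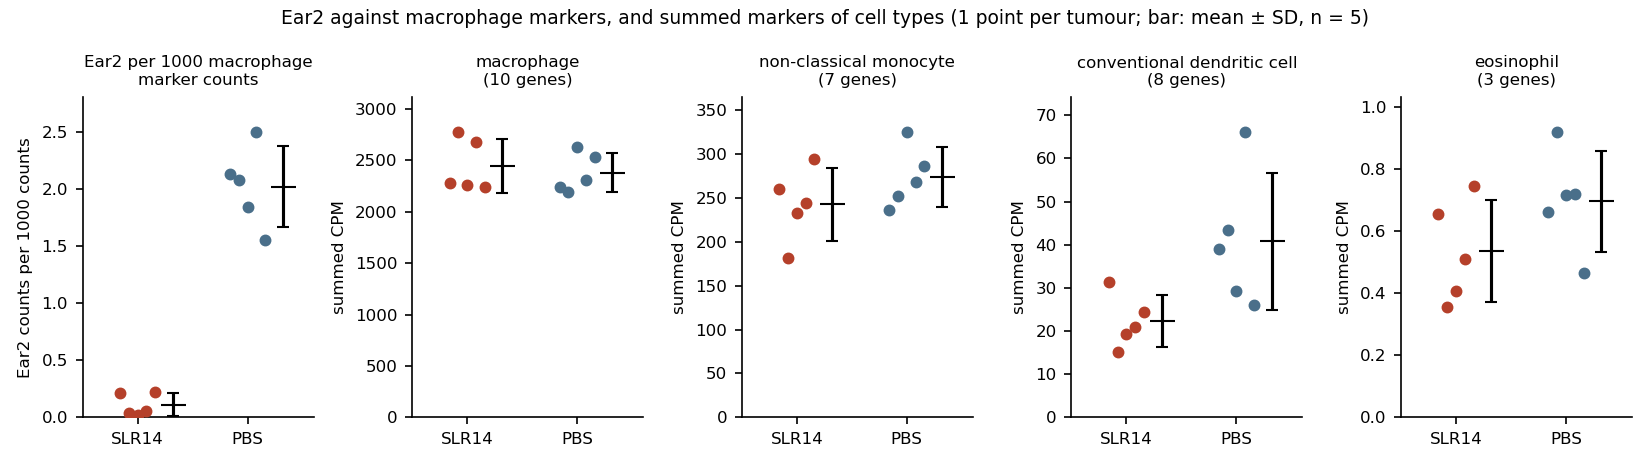
Ear2 counts per 1000 counts of the 10 macrophage markers (first panel), and summed CPM of the markers of 4 cell types, 1 point per tumour, SLR14 left and PBS right, bars mean ± SD of 5 tumours, linear axes from 0. The Ear2 ratio lies at 0.0225 to 0.226 in SLR14 tumours and 1.55 to 2.5 in PBS tumours, while summed macrophage markers overlap at 2240 to 2780 CPM with SLR14 and 2190 to 2630 CPM with PBS.

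The wider pathway was read from 9 lists, chosen with earlier results of these tumours known. They name 125 genes apart from the 7, of which 84 were in the table and 81 tested. Of these 81, edgeR called 2 higher and 5 lower with SLR14, which is 8.64% beside 0.963% of all tested genes, and all 7 lie on the list of macrophage genes induced by IL-4 and IL-13. The other 8 lists had no call. Because those earlier results were known when the lists were chosen, nothing is read from the share of 8.64%.

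IL-4 and IL-13 induced macrophage genes split. Of 28 listed genes 26 were in the table and 25 tested, and 5 fell, 2 rose and 18 did not pass. The median log2 fold change was -0.23 with 9 values above and 16 below 0, beside a median of -0.011 over all tested genes. DESeq2 called 9 of the 25 and voom 7, and 14 had an unadjusted p under 0.05 beside 10.8% of all tested genes. The genes that fell encode a lipoxygenase, a lectin, a pair of chemokines and a transcription factor.

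Alox15, the lipoxygenase that IL-4 and IL-13 induce in mouse macrophages and that oxidises polyunsaturated fatty acids, measured 0.451, 0.179, 0.508, 1.27 and 0.773 CPM in SLR14 tumours 1 to 5 and 9.9, 8.57, 4.94, 6.11 and 5.85 CPM in PBS tumours 1 to 5. Every PBS tumour was well above every SLR14 tumour. On the log2 scale Alox15 fell by 3.46, with an SE of 0.35 and an edgeR adjusted p of 0.000406. Ccl17, a chemokine that attracts Ccr4-bearing T cells, measured 0.369, 0.714, 0.152, 0.866 and 0.48 CPM with SLR14 and 4.04, 4.6, 2.0, 7.66 and 4.96 CPM with PBS. Its groups did not overlap, PBS 3 being the lowest control, and it fell by 3.26 (SE 0.42, edgeR adjusted p = 0.00237). Mgl2, a galactose-binding lectin of macrophages and dendritic cells, measured 18.8, 16.9, 11.6, 21.9 and 23.6 CPM in SLR14 tumours against 41.5, 58.5, 40.9, 64.4 and 44.0 CPM in PBS tumours. It fell by 1.43 with no overlap (SE 0.19, edgeR adjusted p = 0.00254). Each of these 3 genes was called in all 19 alternative fits.

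The other genes that fell were Ccl24 and Irf4, named after their values were seen. Ccl24, an eosinophil-attracting chemokine, averaged 0.498 ± 0.0985 CPM in SLR14 tumours and 1.86 ± 0.405 CPM in PBS tumours (SD, n = 5 each; log2 fold change -1.92, SE 0.26, edgeR adjusted p = 0.00254). Irf4, a transcription factor used by type 2 macrophages and dendritic cells, averaged 1.46 ± 0.501 CPM with SLR14 against 3.9 ± 1.38 CPM with PBS (SD, n = 5 each; log2 fold change -1.43, SE 0.29, edgeR adjusted p = 0.033). The Irf4 call was lost in 9 of 19 alternatives, with an adjusted p of up to 0.123.

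Genes that rose were Ch25h and Slc7a2. Ch25h makes 25-hydroxycholesterol and is known as an interferon-induced gene as well. It measured 26.9, 15.4, 28.7, 16.7 and 13 CPM in SLR14 tumours and 5.37, 8.0, 5.35, 5.99 and 11.6 CPM in PBS tumours, with PBS 5 just under the lowest SLR14 tumour. The log2 fold change was 1.48 (SE 0.26, edgeR adjusted p = 0.0184), and the call was lost in 5 of 19 alternatives, without PBS 1, PBS 3, SLR14 1 or SLR14 3 (adjusted p up to 0.0621) and with the replicate block (adjusted p = 0.0945). Slc7a2, a transporter of arginine, averaged 5.53 ± 1.21 CPM in SLR14 tumours and 2.71 ± 0.766 CPM in PBS tumours (SD, n = 5 each; log2 fold change 1.02, SE 0.22, edgeR adjusted p = 0.0475). That call did not survive the loss of any 1 tumour, with adjusted p values of 0.0518 to 0.137.

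Well-known members of the list were among those not called, and which cells of a whole tumour carried them was not tested. Mrc1, the mannose receptor CD206, averaged 507 ± 125 CPM in SLR14 tumours and 626 ± 200 CPM in PBS tumours (SD, n = 5 each; log2 fold change -0.30, SE 0.21). Bhlhe40, a transcription factor, averaged 462 ± 65.1 CPM with SLR14 and 444 ± 183 CPM with PBS (SD, n = 5 each; log2 fold change 0.06, SE 0.23). Arg1, the arginase that is a standard mark of mouse type 2 macrophages and was picked after its values were seen, measured 15.3, 20.4, 16.1, 23.5 and 6.66 CPM with SLR14 and 4.84, 13.8, 0.943, 1.89 and 7.16 CPM with PBS. SLR14 5 lay inside the PBS range, and the log2 fold change of 1.51 (SE 0.54) had an edgeR adjusted p of 0.318. Without PBS 2, the highest control, it was 2.15 (edgeR adjusted p = 0.0843). Ccl22 and Clec10a, also picked after their values were seen, lay on the other side. Their log2 fold changes were -1.91 (SE 0.45, edgeR adjusted p = 0.0736) and -1.07 (SE 0.31, edgeR adjusted p = 0.173), and DESeq2 called both lower. Over the whole list 9 values lay above 0 and 16 below. Retnla and Chil4 were not analysed here.

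**Figure D3:**
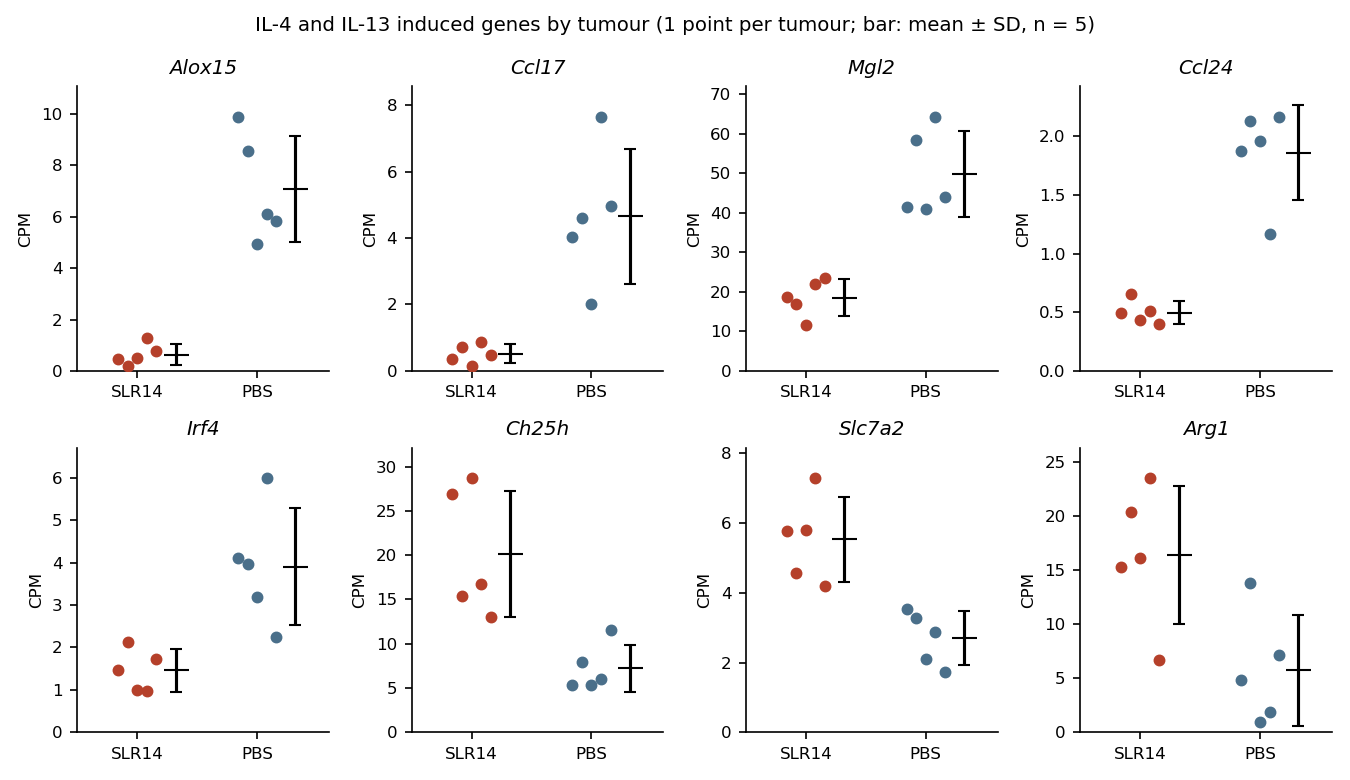
CPM of the 7 called genes of the IL-4 and IL-13 list and of Arg1, 1 point per tumour (left to right, tumours 1 to 5), SLR14 left and PBS right, bars mean ± SD of 5 tumours, linear axes from 0. Alox15, Ccl17, Mgl2, Ccl24 and Irf4 are lower in every SLR14 tumour than in any PBS tumour, Ch25h and Slc7a2 are higher in every SLR14 tumour, and Arg1 overlaps at 6.66 to 23.5 CPM with SLR14 and 0.943 to 13.8 CPM with PBS.

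Upstream of the macrophage genes, little could be measured of the cytokines themselves. Il33, an alarmin, was the 1 gene of 8 in the table, at 0.42 ± 0.497 CPM in SLR14 tumours and 0.707 ± 0.393 CPM in PBS tumours (SD, n = 5 each), and it was not called (log2 fold change -0.66, SE 0.68, and -1.9 without SLR14 5, the highest tumour of its group). Il4, Il5, Il9, Il13, Il25, Il31 and Tslp were not analysed here. Of the receptors of type 2 cytokines 10 of 11 were tested and edgeR called 0, with a median log2 fold change of 0.31. Of these, 5 had an unadjusted p under 0.05 (10.8% of all tested genes), each of them higher with SLR14. DESeq2 called 1 of the receptors (Il17ra) and voom called 0. The most abundant were Csf2rb, the beta chain of the IL-5 and GM-CSF receptors, at 70.6 ± 4.56 CPM against 72.6 ± 15.7 CPM, and Il17rb, a chain of the IL-25 receptor, at 63.0 ± 4.39 CPM against 59.1 ± 3.38 CPM (SLR14 against PBS, SD, n = 5 each).

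STAT6 signalling had no call among 12 tested genes by edgeR, DESeq2 or voom, with 5 unadjusted p values under 0.05 (10.8% of all tested genes) and a median log2 fold change of 0.14. Those p values belonged to Jak3, Socs1, Socs3 and Ptpn6, higher with SLR14, and Irs1, lower, all named after their values were seen. Jak1, a kinase bound to IL-4Rα, averaged 373 ± 46.7 CPM in SLR14 tumours and 361 ± 60 CPM in PBS tumours. Stat6 averaged 211 ± 11.9 CPM in SLR14 tumours and 195 ± 37.4 CPM in PBS tumours (SD, n = 5 each), and its log2 fold change was 0.12 (SE 0.13).

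The families of the other genes gave the same count of 0. In the RNase A superfamily 5 of 26 listed genes were tested and none called by edgeR, DESeq2 or voom, nor at an unadjusted p under 0.05. Rnh1, the cytosolic ribonuclease inhibitor, averaged 707 ± 133 CPM in SLR14 tumours and 686 ± 164 CPM in PBS tumours, and Rnase4, a secreted ribonuclease, 83.2 ± 11.1 CPM with SLR14 and 93.3 ± 14.4 CPM with PBS (SD, n = 5 each; log2 fold change -0.16, SE 0.12). The EGR family and its NAB corepressors had 4 tested genes, with 0 called by edgeR, DESeq2, voom or the unadjusted p. Nab1 averaged 156 ± 6.96 CPM against 167 ± 10.3 CPM and Nab2 63.6 ± 5.36 CPM against 73.6 ± 16.5 CPM (SLR14 against PBS, SD, n = 5 each). Of the transglutaminases F13a1, the A chain of clotting factor XIII that monocytes and macrophages carry, averaged 91.1 ± 67.4 CPM with SLR14 and 184 ± 63.4 CPM with PBS (SD, n = 5 each). Its log2 fold change of -1.02 (SE 0.42) had an edgeR adjusted p of 0.405, and Tgm1, an enzyme of skin cornification, was at 44.6 ± 14.9 CPM with SLR14 and 39.5 ± 6.34 CPM with PBS.

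Partners and targets of PPARγ had no call. Of 10 tested receptors and coregulators edgeR, DESeq2 and voom called 0, with 1 unadjusted p under 0.05. Rxra, a dimer partner of PPARγ, averaged 157 ± 5.82 CPM with SLR14 and 132 ± 36.6 CPM with PBS (SD, n = 5 each). Of 12 tested target genes 0 were called by any of these tools and none had an unadjusted p under 0.05. Plin2, which coats lipid droplets, averaged 975 ± 82.3 CPM with SLR14 and 1020 ± 122 CPM with PBS, and Slc27a1, a fatty acid transporter, 272 ± 26.6 CPM with SLR14 and 245 ± 42.1 CPM with PBS (SD, n = 5 each).

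**Figure D4:**
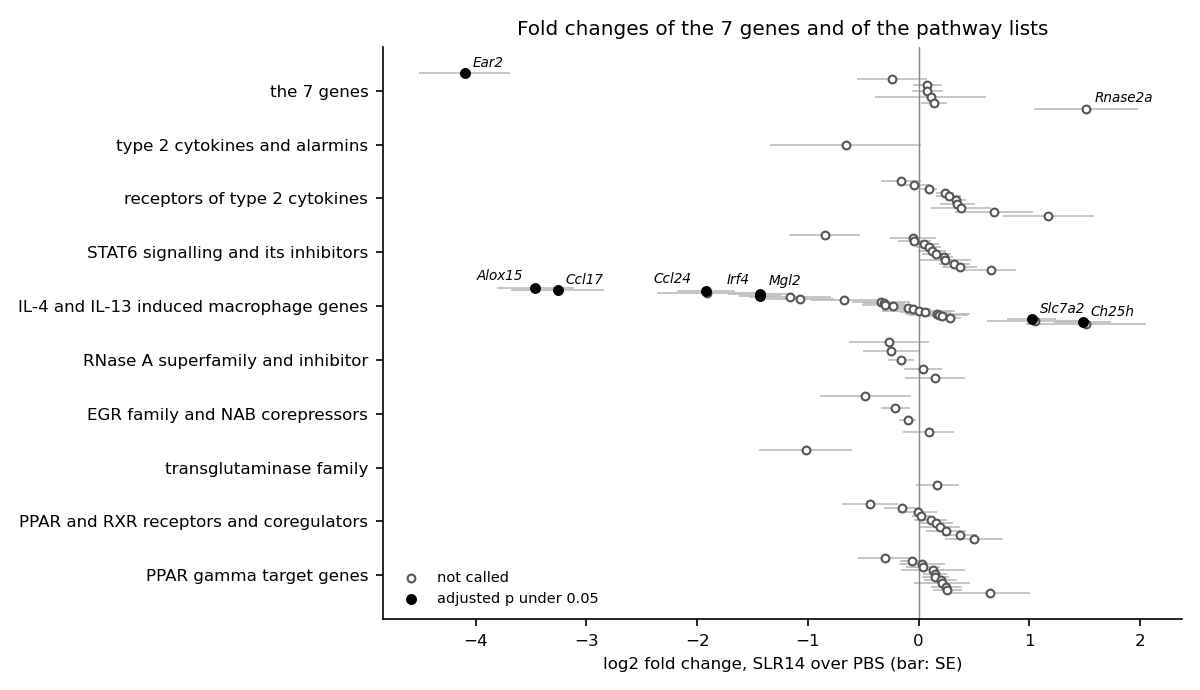
Log2 fold change, SLR14 over PBS, of the 7 genes (top row) and of the tested genes of 9 pathway lists, 1 point per gene with its SE as a bar, filled where the edgeR adjusted p is under 0.05. Ear2 at -4.10 is the filled point of the top row, and the filled points below it all lie on the IL-4 and IL-13 induced list.

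The genes whose levels most resembled Ear2 over the 10 tumours were ranked by Pearson's r of log2(CPM + 1) among 12058 genes with a mean of at least 1 CPM. The first 6 were Asgr2 (r = 0.982), Gfra2 (0.973), Adam23 (0.958), Cd209a (0.957), Alox15 (0.952) and Plppr4 (0.946). All 6 were lower in every SLR14 tumour than in any PBS tumour, so most of this likeness is the group difference itself. Once group means were taken off, r with Ear2 was 0.836 for Adam23, 0.599 for Plppr4, 0.402 for Asgr2, 0.37 for Gfra2, 0.0491 for Alox15 and -0.0497 for Cd209a. These values are descriptions over 10 tumours, and both genes of a pair are read from the same libraries, so that they share each library's depth and cell content.

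Asgr2, a chain of the asialoglycoprotein receptor, a galactose-binding lectin, measured 1.19, 0.893, 0.406, 1.43 and 1.33 CPM in SLR14 tumours 1 to 5 against 12.9, 10.1, 10.3, 13.4 and 14.6 CPM in PBS tumours 1 to 5. Adam23, a membrane protein of the ADAM family without protease activity, measured 1.6, 0.595, 0.482, 1.27 and 1.49 CPM with SLR14 against 4.81, 4.06, 4.79, 9.46 and 4.3 CPM with PBS. For Adam23, as for Ear2, SLR14 1 and 5 were the highest treated tumours and PBS 4 the highest control.

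Within the groups, 1 of 21 pairs of the 7 genes passed the adjusted threshold over all 10 tumours, and 3 of 21 did without PBS 5 and SLR14 2. Deviations from the group means in log2(CPM + 1) were compared over the 10 tumours by an exact permutation test within groups, two-sided, adjusted over the 21 pairs. Ear2 and Pparg gave Pearson's r = 0.824 (permutation p = 0.000417, adjusted p = 0.00875) and Spearman's rho = 0.9 (permutation p = 0.00431, adjusted p = 0.0904). Without the 2 tumours farthest from the median of Ear2, r was 0.87, and without PBS 5 and SLR14 2 it was 0.774 (8 tumours, permutation p = 0.00694, adjusted p = 0.0486). In those 8 tumours a pair of inverse relations passed as well, Ear2 with Il4ra at r = -0.725 (permutation p = 0.00694, adjusted p = 0.0486) and Rnase2a with Il4ra at r = -0.787 (permutation p = 0.00521, adjusted p = 0.0486). Over all 10 tumours these stood at r = -0.52 (permutation adjusted p = 0.362) and r = -0.679 (permutation adjusted p = 0.153). Ear2 with Il4ra gave -0.343 without the 2 tumours farthest for Ear2. Rnase2a with Il4ra gave -0.361 without the 2 tumours farthest for Rnase2a. Tumours SLR14 1, SLR14 5 and PBS 4 were high for both Ear2 and Pparg. SLR14 3 and PBS 5 were the lowest of their groups for both of these genes. The counts behind these values are few, 2 to 19 for Ear2 in SLR14 tumours and 4 to 50 for Pparg in all tumours. Ear2 with Rnase2a gave r = 0.723 (rho = 0.6, permutation adjusted p = 0.153 for r and 0.254 for rho), and with Il13ra1 r = -0.671 (rho = -0.8, permutation adjusted p = 0.153 and 0.176). Over the 21 pairs r lay between -0.679 and 0.824, with 11 values above 0.

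**Figure D5:**
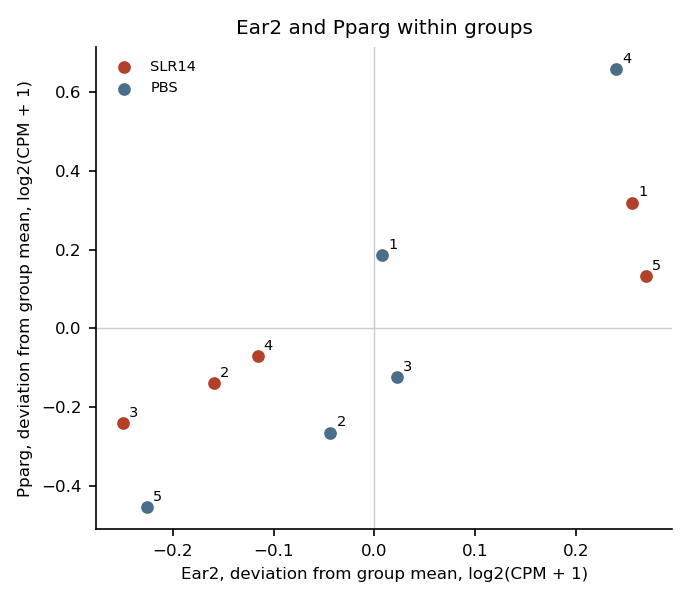
Deviation of each tumour from its group mean in log2(CPM + 1), Ear2 on the x axis and Pparg on the y axis, with the tumour number beside each point. Tumours SLR14 1, SLR14 5, PBS 1 and PBS 4 lie above 0 for both genes and PBS 5 at the lower left, with r = 0.824 over the 10 tumours.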

How the data were processed

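RNA-seq of 10 RENCA tumours, 5 given SLR14 and 5 given PBS, was taken from the tables the authors deposited. Per the labels' protocols, total RNA was depleted of ribosomal RNA, enriched with oligo(dT) beads and made into cDNA with random primers. The mm39 build, STAR, Trim Galore 0.6.7 and DESeq2 1.36.0 entered the authors' pipeline, per the submitters' processing notes. Which program counted reads, on which annotation and with what strand setting, is not given in the sources used here. The authors deposited raw counts per gene (18603 genes, 74 without a symbol, none with a third-highest normalized value below 5.08) and a normalized signal, counts divided by 1 factor per sample, which entered 1 alternative.

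The main test was edgeR 4.0.16 (R 4.3.3): filterByExpr by group with a minimum count of 10 (15883 genes kept), TMM, glmQLFit and glmQLFTest over all 10 tumours with no covariate, Benjamini-Hochberg adjustment over all tested genes at 0.05. A log2 fold change over the root of its F statistic gave its SE. The common biological coefficient of variation came to 0.19. Alternatives were DESeq2 1.42.0, limma 3.58.1 (voom, and log2(value + 1) of the authors' normalized values), DESeq2 size factors, upper-quartile factors, no low-count filter, a filter of 1 CPM in 5 samples, each tumour left out, PBS 5 and SLR14 2 left out together, and a replicate block. The edgeR code was tested on simulated data. Pairs of tumours within groups differed by more than counting noise, so none was counted as a duplicate. Exon lengths and transcript windows came from GENCODE M21 (GRCm38) and promoters from RefSeq (GRCm38.p6), matched by symbol. As these are not the authors' build, no gene coordinates from them were joined to the counts.

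The 7 genes and all lists were chosen with earlier results of these data known. Named list genes are up to 3 called genes with the smallest p in each direction and the 2 with the highest mean CPM, and for likeness the 6 highest r, leaving out predicted genes and receptor segments. Genes outside this rule are said to be picked after their values were seen. Values of 1 gene that the rule names are not reported here, though counts of genes include it. Each p-value of a group difference sets that difference against the spread between tumours of separate mice. Permutation p-values of gene pairs concern their association within the groups.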

Additional observations from a re-analysis of the deposited data

Results flagged for a closer look

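In 110 groups of 5 tumours, 1 for each named gene or marker sum and treatment, a Dixon test at a critical value of 0.71 picked out 13 tumours that stood far from the rest of their group (11.8%). Chance flags about 1 in 20 groups, and 7 of the 13 were PBS 5.

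Among the 7 genes, Rnase2a in SLR14 5 stood at 1.36 CPM, against 0.406 to 0.615 CPM in the other SLR14 tumours. Tgm2 in PBS 5 stood at 322 CPM, against 473 to 516 CPM in the other controls.

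PBS 5 was also apart for Il17rb at 64.9 CPM (others 56.5 to 58.8), for Rnh1 at 967 CPM (568 to 665) and for Rnase4 at 118 CPM (83.3 to 90.8). It was low for Rxra at 68.8 CPM (others 136 to 161). Its adipocyte markers in the table, Plin4 and Cidec, summed to 100 CPM (others 164 to 180), nearly all of it Plin4. Adipoq, Plin1, Lep and Retn of that list were not analysed here. Its erythroid markers summed to 160 CPM (40.2 to 55.9). PBS 4 stood at 1.17 CPM for Ccl24 (other controls 1.88 to 2.17) and at 9.46 CPM for Adam23 (4.06 to 4.81). In SLR14 tumours, Il33 in SLR14 5 stood at 1.28 CPM (others 0.0254 to 0.357), Nab1 in SLR14 2 at 144 CPM (157 to 162), and the erythroid markers of SLR14 4 summed to 89.0 CPM (15.9 to 36.8).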

How the results depend on the processing

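Ear2 alone of the 7 genes was called in each of the 19 alternatives, and its ratio to macrophage marker counts stayed between -4.58 and -3.9 on the log2 scale with single tumours left out. Counts over all genes moved more. Beside 153 genes called (107 higher, 46 lower), DESeq2, with 18584 genes under its own filter, called 407 (251 higher, 156 lower). Leaving out 1 tumour gave 69 to 194 genes (44 to 123 higher, 25 to 71 lower), with fewer than 100 without PBS 1 (69), PBS 3 (78), SLR14 1 (77), SLR14 3 (75) or SLR14 4 (89). Without PBS 5 and SLR14 2 together 74 genes were lower. The 7 called list genes became 4 to 7 with 1 tumour left out, 4 of them without PBS 1, SLR14 1 or SLR14 3. The cause of these shifts was not tested. None of the results changed direction while called. Signs of uncalled members turned for Egr2 in 1, Tgm2 in 2 and Pparg in 4 alternatives. The median over all genes lay between -0.047 and 0.006 on the log2 scale. Rnase2a and Pparg have no value under the 1 CPM filter.

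The replicate numbers are shared between groups in the labels, which name no pairing of tumours. Same-numbered tumours had correlations of deviations between -0.25 and 0.138, and none matched its own number best. So few values cannot settle whether the numbers reflect a pairing. With the replicate block 78 genes were called (51 higher, 27 lower), 4 of them on the lists, and Ear2 was again the 1 member called.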

Other observations

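Neutrophil markers, not described above, went the other way from Ear2. Of 5 tested, the edgeR fit called 3 higher with SLR14, and the 6 in the table summed to 17.1 to 50.7 CPM in SLR14 tumours and 11.2 to 16 CPM in PBS tumours. S100a8 and S100a9 encode the subunits of calprotectin, an antimicrobial protein of neutrophil cytosol, and Mmp8 a collagenase of their granules. S100a8 averaged 3.25 ± 1.58 CPM in SLR14 tumours and 0.735 ± 0.217 CPM in PBS tumours (SD, n = 5 each; log2 fold change 2.11 with SE 0.36, adjusted p = 0.0127 by edgeR). Mmp8 averaged 2.49 ± 1.39 CPM with SLR14 and 0.444 ± 0.147 CPM with PBS (log2 fold change 2.46 with SE 0.42, adjusted p = 0.0138 by edgeR). S100a9, whose groups overlapped, averaged 9.61 ± 7.01 CPM with SLR14 and 1.53 ± 0.902 CPM with PBS (log2 fold change 2.64 with SE 0.52, adjusted p = 0.0295 by edgeR). DESeq2 called 4 of the 5 and voom 0, and 4 had an unadjusted p under 0.05. Leaving out 1 tumour ended the S100a9 call in 6 of 10 fits and the Mmp8 call in 1, the fit without PBS 3. Fibroblast markers summed to 360 to 1220 CPM with SLR14 and 556 to 2620 CPM with PBS, with 0 of 5 called by edgeR, DESeq2 or voom and 2 at an unadjusted p under 0.05 (10.8% of all tested genes).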
